A study of Homo sapiens with 2 samples.

Results

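PIK3CA, PIK3R1, PIK3R3 and AKT1 encode a catalytic subunit and a pair of regulatory subunits of class I phosphoinositide 3-kinase (PI3K) and the kinase AKT1 that acts below it. They were found by symbol in the authors' deposited table of changed genes under 327 KEGG pathways, and they are 4 of its 2238 changed genes. The table compares SNU-449 cells, an established human hepatocellular carcinoma line, grown with fetal bovine serum and left as control (1 library) or treated with ezetimibe for 24 h (1 library). Ezetimibe lowers cholesterol by blocking NPC1L1, which takes sterols up into cells; the labels state no dose. With 1 library per condition no difference has a replicate check, and a different culture could give other calls. The table gives each gene a direction, up or down, and no level, fold change or p-value, so the values per library were not analysed here and the size of each change is unknown. The name of the comparison puts ezetimibe before control, so up was taken to mean higher after ezetimibe, and the values offer no check of this order. A gene that is not listed was not called by the authors, was not expressed, or lies outside the pathways. Sequencing depth is unknown from this table.

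Class I PI3K adds a phosphate to the membrane lipid phosphatidylinositol bisphosphate when a growth factor receptor, an adaptor such as IRS1 or an active Ras protein recruits it. The product draws AKT to the membrane, where PDPK1 and the mTORC2 complex phosphorylate and activate it. AKT then restrains the TSC complex, which releases the growth-promoting complex mTORC1, and it keeps FoxO transcription factors out of the nucleus. Lipid phosphatases remove the phosphate again. In hepatocytes the pathway carries the insulin signal to glucose and lipid metabolism, and in liver cancer it is often overactive.

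PIK3CA, PIK3R1, PIK3R3 and AKT1 were all listed as down after ezetimibe. In the same comparison 25.2% of the 8877 background genes were listed in either direction, 17.0% as down and 8.2% as up. The genes were chosen with this listing known, so their shared direction is a description. PIK3CA (ENSG00000121879) encodes p110 alpha, the catalytic subunit most often mutated in cancer, and lies on chromosome 3 from 179148114 to 179240093 on the plus strand. PIK3R1 (ENSG00000145675) encodes p85 alpha, which stabilises the catalytic subunit and holds it inactive until its SH2 domains bind a phosphorylated receptor or adaptor, and lies on chromosome 5 from 68215720 to 68301821 on the plus strand. PIK3R3 (ENSG00000117461) encodes p55 gamma, a shorter regulatory subunit that keeps both SH2 domains, and lies on chromosome 1 from 46040140 to 46133036 on the minus strand. AKT1 (ENSG00000142208) encodes the most widely expressed of the AKT kinases and lies on chromosome 14 from 104769349 to 104795751 on the minus strand. These positions are those of GENCODE release 29 on GRCh38, since the authors' build and annotation were not stated in the sources.

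The 4 genes lie on different chromosomes, and their start regions differ in base composition. The following sequences show this contrast for PIK3R1, PIK3R3 and AKT1, and for PIK3R1 it does not carry over to the transcript. They are stretches of the RefSeq start region on GRCh38.p14, read 5' to 3' on the strand of the gene, with capitals marking matches on either strand to GTAAACA (the core of a FoxO site), CCAAT (the CCAAT box) or GGGCGG (the Sp1 GC box). For PIK3CA only the 30 bases around a single FoxO match are shown (chr3:179148196-179148225, plus strand). They are too few to show the composition of its start region. For the others the window shown ends before the first annotated transcript start (PIK3R1 at chr5:68215506-68215719, plus strand; PIK3R3 at chr1:46133037-46133286, minus strand; AKT1 at chr14:104795752-104795998, minus strand).
PIK3CA: gagttcgttgttTGTTTACacgatgtgagc
PIK3R1: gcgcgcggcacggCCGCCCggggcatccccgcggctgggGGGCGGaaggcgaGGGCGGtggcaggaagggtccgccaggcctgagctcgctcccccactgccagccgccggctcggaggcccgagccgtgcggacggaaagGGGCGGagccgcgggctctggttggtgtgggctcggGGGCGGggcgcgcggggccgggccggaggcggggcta
PIK3R3: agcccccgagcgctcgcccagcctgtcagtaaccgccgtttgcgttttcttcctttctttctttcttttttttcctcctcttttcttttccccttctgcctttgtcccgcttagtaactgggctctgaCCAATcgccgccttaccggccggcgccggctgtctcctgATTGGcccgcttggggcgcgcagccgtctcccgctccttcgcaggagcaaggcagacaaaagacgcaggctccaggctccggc
AKT1: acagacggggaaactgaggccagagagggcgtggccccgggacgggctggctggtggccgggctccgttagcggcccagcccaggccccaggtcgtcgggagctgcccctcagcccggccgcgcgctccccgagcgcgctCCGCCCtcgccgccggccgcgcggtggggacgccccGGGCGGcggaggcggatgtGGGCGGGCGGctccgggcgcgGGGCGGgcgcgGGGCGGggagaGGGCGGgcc

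Over the 250 bases before the RefSeq start, GC content was 83.2% for AKT1 and 81.6% for PIK3R1, against 60.4% for PIK3R3 and 57.6% for PIK3CA. AKT1 lay above 99.0% and PIK3R1 above 98.0% of the 35116 human start windows of this length, whereas PIK3R3 and PIK3CA lay above 55.0% and 48.1%. The GC box was matched 7 times before AKT1, with a pair of overlapping matches, 5 times before PIK3R1, 1 time before PIK3CA and 0 times before PIK3R3, and 42.6% of all windows hold it. CCAAT was matched 2 times before PIK3R3 and 1 time before PIK3CA, and 32.0% of all windows hold it. The FoxO core was matched 1 time for PIK3CA, beginning 149 bases upstream of the RefSeq start, and in 2.98% of all windows. That RefSeq start (179148357) lies inside the gene as GENCODE annotates it (from 179148114), so the PIK3CA matches are within the annotated gene. The FoxO core was in none of the 4 windows of PIK3R1, the 6 of PIK3R3 or the 2 of AKT1 that RefSeq starts give. Neither the cyclic AMP response element TGACGTCA (1.65% of all windows), the AP-1 site TGANTCA (6.57%), TGATGCAA, the core bound by CHOP with ATF4 (0.772%), the E-box CACGTG (6.34%) nor the E2F site TTTGGCGC (0.55%) was matched in any of the 4 windows nearest to the gene starts. In these 4 windows no motif was matched in all 4 genes. Over all windows that RefSeq starts give, the GC box was in at least 1 window of each gene. It was in the 1 window of PIK3CA, 2 of the 4 of PIK3R1, 1 of the 6 of PIK3R3 and both of AKT1. A match is a run of letters and no evidence of binding.

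Other annotated genes share sequence with members, which bears on how their reads could be counted. The sources do not state whether the counting used strand. PIK3CA overlaps the potassium channel subunit gene KCNMB3, on the opposite strand, by 3403 bases at its 3' end, and KCNMB3 was also listed as down. Without strand, reads of PIK3CA and KCNMB3 in this stretch cannot be told apart. PIK3CA also has an unprocessed pseudogene copy on chromosome 22 (AP000547.1) that matches 655 bases of its 9093-base transcript at 91.8% identity. On the opposite strand, 2715 bases of the PIK3CA transcript match KCNMB3P1, a pseudogene on chromosome 22, at 98.2%. PIK3R3 overlaps the longer gene AL358075.4 on the same strand by 89376 of its 92897 bases, and the transcript of that gene matches 1299 of its 5609 bases at 99.9%, so reads in these exons cannot be given to one of them by sequence. AKT1 overlaps the antisense gene AL583722.2 by 923 bases. No gene overlaps PIK3R1. Between relatives the aligned parts were less alike, with 80.1% identity over 1441 bases for AKT1 and AKT2 and 73.4% over 1185 bases for PIK3R1 and PIK3R3.

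Among the relatives of the 4 genes, those listed went the same way. Of the 4 class I catalytic subunits PIK3CA was the one listed, and the beta, delta and gamma subunits PIK3CB, PIK3CD and PIK3CG were not. Of the 5 class I regulatory subunits, PIK3R1, PIK3R3 and PIK3R6, a partner of the gamma subunit, were listed as down, and PIK3R2 and PIK3R5 were not listed. AKT2, the isoform best known for insulin action in liver, was not listed. Of the 5 genes of the other PI3K classes, the class II kinases PIK3C2A, PIK3C2B and PIK3C2G and PIK3R4, the regulatory partner of the class III kinase, were listed as down, and the class III kinase PIK3C3 itself was not listed. In all, 10 of these 17 were listed, with 0 up and 10 down. Without the 4 genes that set the choice, 6 of 13 were listed (46.2%), 0 as up and 6 as down, beside 25.2% of background genes listed and 17.0% listed as down. Which of the 13 are among the authors' background genes is not given.

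**Figure D1:**
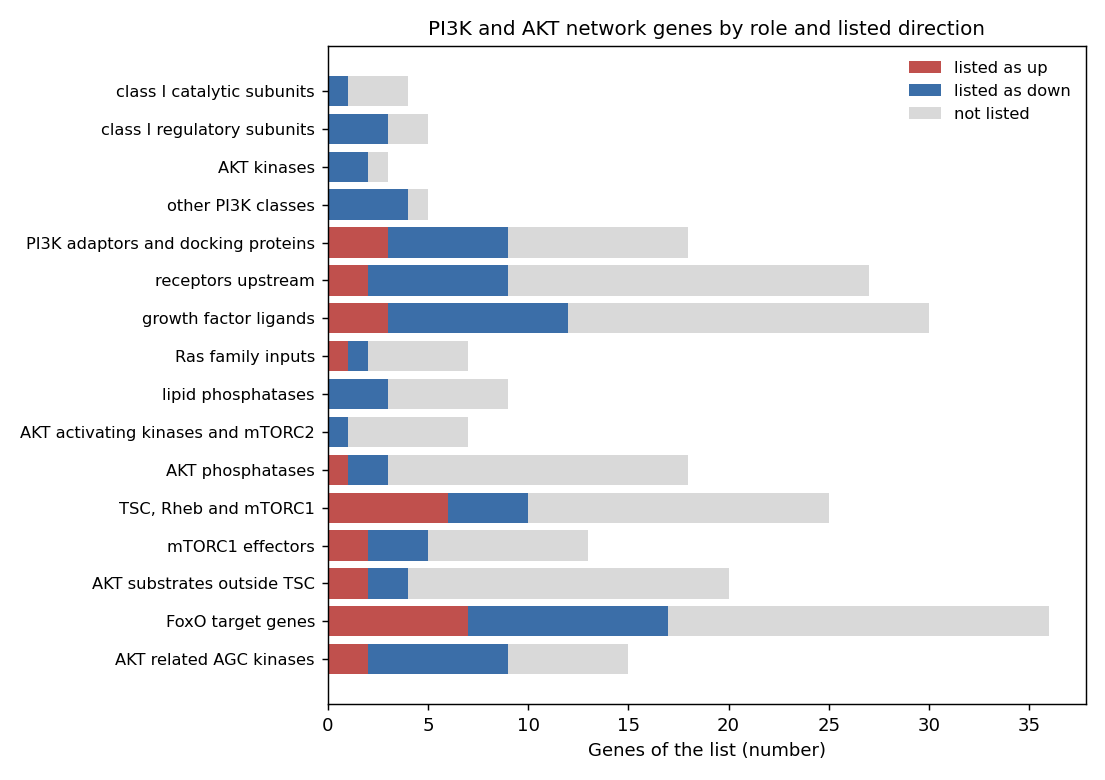
Genes of each role in the PI3K and AKT network (horizontal axis, number of genes) that the authors listed as up (red), listed as down (blue) or did not list (grey) after ezetimibe. The first 4 bars, PI3K subunits and AKT kinases, hold 10 genes listed as down and 0 as up, while the TSC, Rheb and mTORC1 bar holds 6 up and 4 down.

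Upstream of PI3K the listed receptors and ligands were mostly down, as were the listed genes of the whole table. Of 27 receptors 9 were listed, 2 as up and 7 as down. Those down were the insulin-like growth factor receptor IGF1R, ERBB3, whose phosphorylated tail is a main docking site for PI3K, ERBB4, the hepatocyte growth factor receptor MET, the fibroblast growth factor receptors FGFR3 and FGFR4, and the ephrin receptor EPHA2. The neurotrophin receptor NGFR and the interleukin-6 receptor IL6R were listed as up. The insulin receptor INSR and the epidermal growth factor receptor EGFR were not listed. Of 30 ligands 12 were listed, with TGFA, EREG, PDGFB, PDGFC, PDGFD, FGF1, FGF5, KITLG and BDNF among the 9 down and VEGFA and FGF18 among the 3 up. These counts, 22.2% up for receptors and 25.0% up for ligands, stand beside 32.5% up over all 2238 listed genes. The listed shares, 33.3% of receptors and 40.0% of ligands, stand beside 25.2% of background genes.

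Of 18 adaptors that couple receptors to PI3K 9 were listed, 3 as up and 6 as down, and their 33.3% up is near the 32.5% of all listed genes. The insulin receptor substrate IRS1, the docking protein GAB1, the phosphatase PTPN11, the Ras exchange factors SOS1 and SOS2 and the adaptor SHC3 were listed as down. The docking protein GAB2, the adaptor SHC2 and the ubiquitin ligase CBLB, which limits receptor signalling, were listed as up. Of 7 Ras family genes 2 were listed (28.6%, near the 25.2% of background genes), 1 as up (MRAS) and 1 as down.

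Most genes that oppose or activate AKT were not listed. The listed share was 33.3% for lipid phosphatases, 14.3% for the activating kinases with mTORC2 and 16.7% for AKT phosphatases, beside 25.2% of background genes. Of 9 lipid phosphatases 3 were listed, all as down, among them INPP4B, which acts on a lipid made downstream of PI3K, and SYNJ1. Of the 7 genes for PDPK1 and the mTORC2 complex, the mTORC2 scaffold RICTOR was listed, as down, and PDPK1 and MTOR were not listed. Of 18 AKT phosphatase genes, 3 subunits of protein phosphatase 2A were listed, with PPP2R5B as up and PPP2R1B and PPP2R5C as down.

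Below AKT the listed genes were split, and the regulators of mTORC1 held more genes listed as up than as down. Of 25 genes in this group 10 were listed (40.0%, beside 25.2% of background genes). Of these 10, 6 were up and 4 down (60.0% up, against 32.5% of all listed genes). Up were RPTOR, the defining subunit of mTORC1, the mTORC1 inhibitors DDIT4 and SESN2, the lysosomal GTPases RRAGC and RRAGD that recruit mTORC1 when amino acids are present, and the AMP-activated kinase subunit PRKAB1. Down were the mTOR inhibitor DEPTOR, the GTPase RRAGB and the AMP-activated kinase catalytic subunits PRKAA1 and PRKAA2. The group therefore held both activators and inhibitors of mTORC1 in each direction. Of 13 mTORC1 effectors 5 were listed (38.5%). The translation repressor EIF4EBP1 and the insulin receptor adaptor GRB10 were up. The S6 kinase RPS6KB1, the cap-binding factor EIF4E and the autophagy kinase ULK2 were down.

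Substrates of AKT and targets of FoxO showed no common direction. Of 20 substrates outside the TSC branch 4 were listed, with the glycogen synthase kinase GSK3A and the cell cycle inhibitor CDKN1A as up and GSK3B and TBC1D4, which controls glucose transporter traffic, as down. The FoxO factors FOXO1, FOXO3, FOXO4 and FOXO6 were not listed. Of 36 FoxO target genes 17 were listed (47.2%), with 7 up and 10 down (41.2% up). Of the 6 under the most pathways, the cyclins CCND1 and CCNB2 were listed as down, and the growth arrest genes GADD45A and GADD45G and the gluconeogenic genes PCK2 and G6PC3 were listed as up. Of 15 kinases related to AKT in structure 9 were listed (60.0%), 7 of them as down. RPS6KA2 and PRKCZ were up, and SGK2, RPS6KA6, PRKCA, PRKCI, PKN2 and PKN3 were among those down. Counting each gene of the 16 network lists once, 94 of 239 were listed (39.3%), beside 25.2% of background genes. The lists were chosen with earlier results of these data known, and which of their genes are in the background is not given. Of the 94, 29 were up and 65 down, a share up of 30.9% against 32.5% over all listed genes. So the network as a whole had nearly the share up of the table. Markers of hepatocytes were read in the same way: 6 of 16 were listed (37.5%), 0 as up. As the table has no levels, the cell type itself was not checked here.

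The table repeats the 4 genes across many rows. PIK3CA was under 90 pathways, PIK3R1 and PIK3R3 under 87 each and AKT1 under 85, against a median of 2 for a listed gene. PIK3R1 and PIK3R3 were under the same 87 rows, all of them also rows of PIK3CA. AKT1 shared 76 rows with all 3 subunits, so 76 of the 99 rows that hold any of the 4 genes hold all 4. In 11 rows the PI3K subunits stood without AKT1, among them Phosphatidylinositol signaling system, Regulation of actin cytoskeleton and Axon guidance. AKT1 stood alone in 9 rows, among them MAPK signaling pathway and Glucagon signaling pathway. PIK3CA stood alone in 3, Inositol phosphate metabolism, Metabolic pathways and MicroRNAs in cancer. A row of KEGG is an annotation, so the same call counted under 76 headings remains 1 call per gene.

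**Figure D2:**
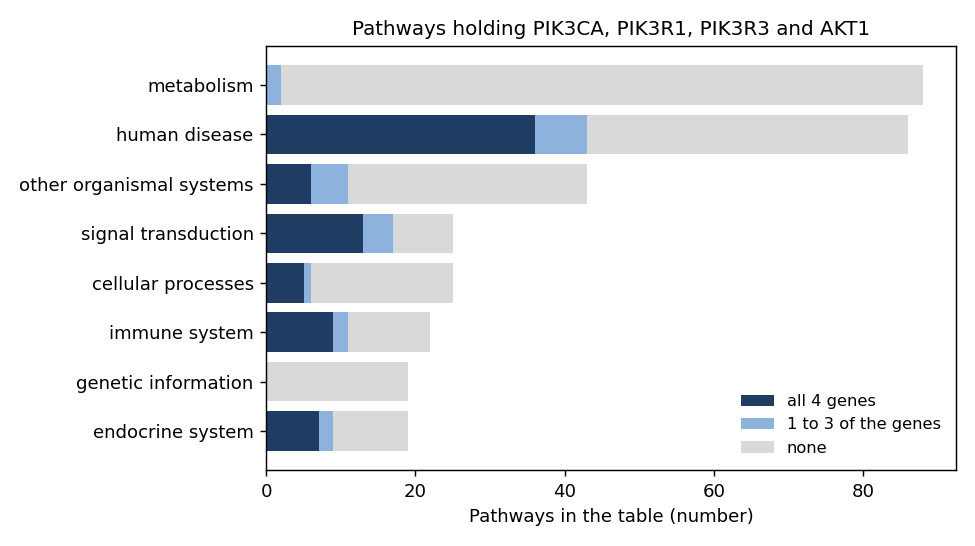
Pathways of the table by class, set from ranges of KEGG numbers (horizontal axis, number of pathways), split into those that hold all 4 genes (dark blue), 1 to 3 of them (light blue) or none (grey). Human disease pathways give 36 of the 76 that hold all 4, and signal transduction gives 13, with JAK-STAT signaling pathway counted as immune.

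Classes were set from ranges of KEGG numbers and are not always KEGG's own. JAK-STAT signaling pathway, which holds all 4 genes, was counted as immune. By these classes, 17 of 25 signal transduction pathways held at least 1 of the 4 genes (68.0%), as did 43 of 86 human disease pathways (50%), 11 of 22 immune pathways (50%), 9 of 19 endocrine pathways (47.4%) and 2 of 88 metabolic pathways (2.27%). None of the 19 pathways in the number range of genetic information processing held any, DNA replication and the ribosome among them. The authors gave a p below 0.05 to 88 of 327 pathways, and 49 of these 88 hold a member, 26 of them disease pathways. Over all 327 pathways 99 hold a member (30.3%). Each member is itself a listed gene and adds to the listed count of its rows. Rows with all 4 were also larger, with a median of 130 background genes against 63 in rows with none. So these counts do not link the members to the small p-values. By the Jaccard index (rows shared over rows of either) across the 327 rows, the kinase MAP2K1, listed as up, was among the genes most alike to the members, with 0.574 to 0.602. Among the members the index was 1.0 for PIK3R1 and PIK3R3, 0.967 for PIK3CA with either, 0.792 for AKT1 with PIK3R1 or PIK3R3 and 0.768 for AKT1 with PIK3CA. A gene that shares most of its rows with the 4 was thus listed in the other direction.

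The weight of the 4 genes within a pathway varied with its size. Over the 76 rows that hold all 4, they made up a median of 8.89% of the listed genes, from 1.99% in Pathways in cancer to 30.8% in Carbohydrate digestion and absorption. This last row has 13 listed genes, 2 up and 11 down, so the 4 genes were 36.4% of those down. The next largest shares were 27.3% in Aldosterone-regulated sodium reabsorption and 23.1% in Type II diabetes mellitus, which hold the 3 PI3K subunits, then 21.1% in Regulation of lipolysis in adipocytes and 19.0% in VEGF signaling pathway. In VEGF signaling pathway 10 listed genes were up and 11 down, and without the 4 genes the share up went from 47.6% to 58.8%.

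**Figure D3:**
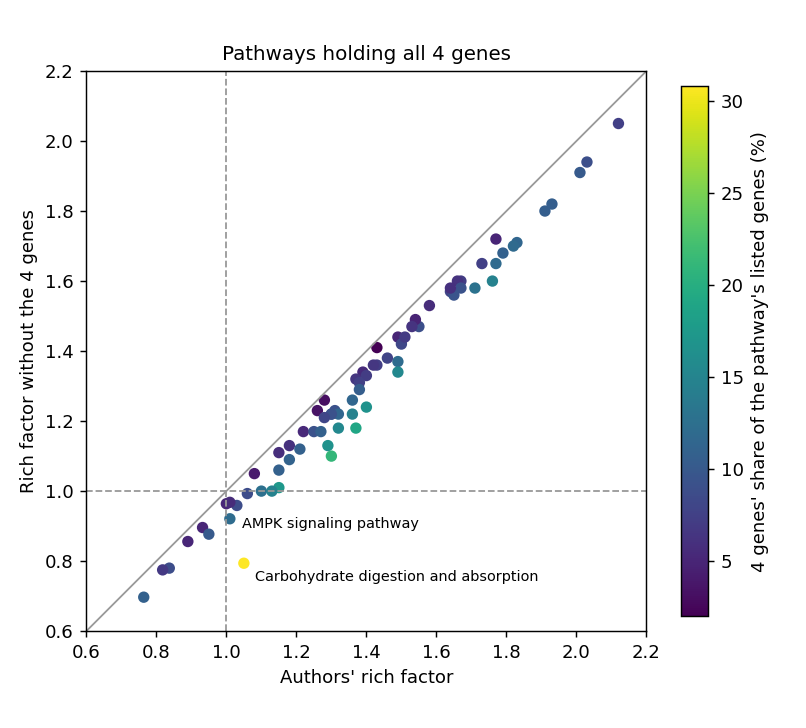
Rich factor of the 76 pathways that hold all 4 genes, as in the authors' deposited table (horizontal axis) and recomputed without the 4 genes (vertical axis), coloured by the share of the listed genes that the 4 make up. Points lie below the diagonal by construction, as the 4 are listed genes, and by most for Carbohydrate digestion and absorption (1.05 to 0.794). The dashed lines mark a rich factor of 1.

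The authors' rich factor divides the percentage of listed genes that belong to a pathway by the same percentage of background genes, so values above 1 mean more listed genes than the background would give. Taking the 4 genes out of the listed and the background genes lowered its median over the 76 rows from 1.38 to 1.27, beside 1.09 in the 228 rows with no member. As all 4 are listed genes, taking them out lowers the factor of each of the 76 rows by arithmetic. Of the 70 rows among the 76 that were above 1, 64 were still above 1 and 6 were not. These 6 were Estrogen signaling pathway, Carbohydrate digestion and absorption, Non-alcoholic fatty liver disease (NAFLD), AMPK signaling pathway, Human immunodeficiency virus 1 infection and Human cytomegalovirus infection. For AMPK signaling pathway the value went from 1.01 in the authors' deposited table to 0.921.

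Rows with all 4 genes and the smallest p had factors well above 1, and the 4 genes were a small part of their listed genes. That these rows stayed above 1 without the 4 was set by arithmetic and tests nothing. In the authors' deposited table Small cell lung cancer, with 54 of 101 genes listed, had a rich factor of 2.12 (p = 6.47e-07), and this was 2.05 without the 4 genes. For Hepatocellular carcinoma, the tumour type of this line, the authors' deposited table has 1.77 (p = 2.62e-06), against 1.72 without them. Pathways in cancer (1.43 and 1.41), Colorectal cancer (2.03 and 1.94), Glioma (2.01 and 1.91), Gastric cancer (1.64 and 1.58), Apoptosis (1.66 and 1.6) and Pancreatic cancer (1.93 and 1.82) had the next smallest p in the authors' deposited table among rows with all 4, each with the authors' value first. These p-values take genes as independent units and say nothing of the spread between cultures.

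In the rows named for the pathway itself the 4 genes were a small part. PI3K-Akt signaling pathway, with 119 of 375 genes listed, had a rich factor of 1.26 in the authors' deposited table (p = 0.0154), and the 4 genes were 3.36% of those listed. Its largest listed group, grouped by name after the row was read, was that of matrix proteins and integrins with 30 of the 119 listed genes, 5 up and 25 down. All 9 integrins in it were down, among them ITGB1, ITGAV and ITGA6, receptors that activate PI3K on binding to matrix. The mTOR signaling pathway had 22 up and 39 down in the authors' deposited table (rich factor 1.37, p = 0.0154), and 1.32 was left without the 4 genes. Beside them it held 5 vacuolar proton pump genes, 4 up and 1 down, 6 Wnt ligands, 2 up and 4 down, and 5 Frizzled receptors, all down, grouped in the same way.

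For FoxO signaling pathway the authors' deposited table has 16 up and 37 down (rich factor 1.5, p = 0.00446), and for Insulin signaling pathway 18 up and 37 down (1.43, p = 0.0107). Without the 4 genes these factors were 1.43 and 1.36. ErbB signaling pathway had 11 up and 22 down in the authors' deposited table (1.49, p = 0.0244), of which the 4 genes were 12.1%. Phosphatidylinositol signaling system held the 3 subunits among 9 up and 28 down (1.4, p = 0.0422 in the authors' deposited table), and Inositol phosphate metabolism held PIK3CA among 6 up and 19 down (1.24, p = 0.243 in the authors' deposited table). Autophagy - animal, which PI3K and AKT restrain through mTORC1, had 27 up and 29 down (1.67, p = 0.000318 in the authors' deposited table), and the 4 genes were 13.8% of those down. Over all 838 other listed genes under the 76 rows, 281 were up and 557 down (33.5% up, exact Clopper-Pearson 95% interval 30.3 to 36.8). Of the 1396 listed genes under none of these rows 32.0% were up (29.6 to 34.5), so the intervals overlap. Intervals here cover counting error only.

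The 4 genes differ in base composition, a property that goes with direction in this table. The share of listed genes that were up was 3.12% in the decile of genes with the lowest GC content of the longest transcript and 63.4% in the decile with the highest. PIK3CA, with 34.8% GC, lies in the lowest decile, PIK3R1 (40.3%) in the third decile, where 8.52% were up, PIK3R3 (45.8%) in the fifth, where 27.2% were up, and AKT1 (62.1%) in the highest. Their listed direction was the same, although their place on this scale was not.

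**Figure D4:**
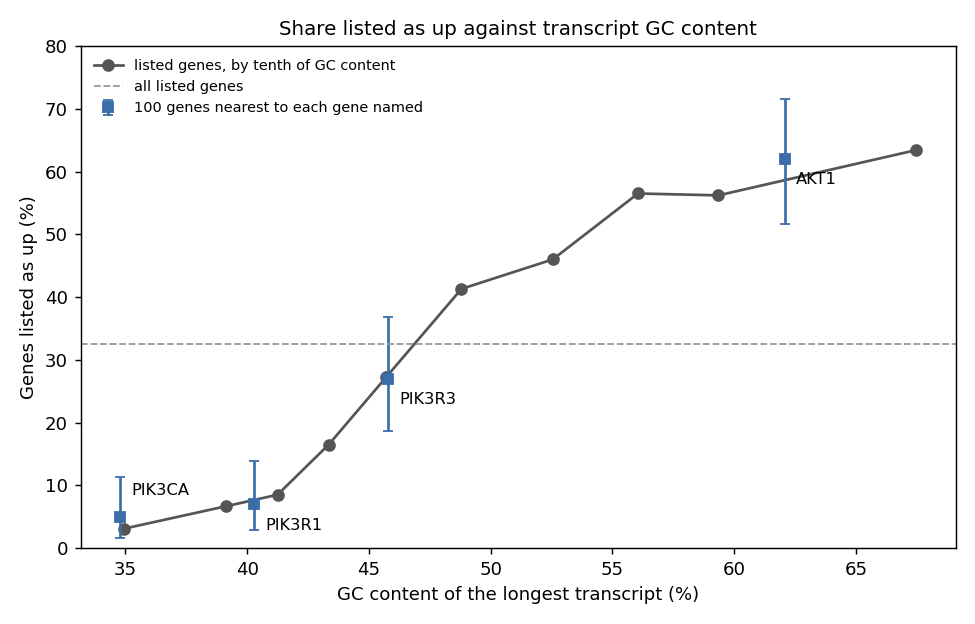
Share of listed genes that were up (vertical axis, %) against the GC content of the longest transcript (horizontal axis, %), by deciles of genes (grey) and for the 100 listed genes nearest to each of the 4 genes (blue squares, bars are exact 95% intervals). The share runs from 5.0% around PIK3CA to 62.0% around AKT1, and the dashed line is the 32.5% of all listed genes.

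Of the 100 listed genes nearest to PIK3CA in GC content, 5 were up (5.0%, 1.64 to 11.3), and of those nearest to PIK3R1, 7 (7.0%, 2.86 to 13.9). Most genes with the composition of PIK3CA and PIK3R1 were thus listed as down, as they were. Around PIK3R3 27 were up (27.0%, 18.6 to 36.8). Around AKT1 62 were up (62.0%, 51.7 to 71.5), so AKT1 was listed against the more common direction of genes like it in transcript composition. Ranked instead by GC content averaged over the start windows of each gene, 32% of the 100 genes nearest to AKT1 were up. So were 30% of those nearest to PIK3CA, and by that measure down was the more common direction around both. Among the 176 listed genes with a GC content at or above that of AKT1, itself included, 113 were up and 63 down (35.8% down). Of the other listed PI3K genes, PIK3C2A, PIK3C2G and PIK3R4 had 3, 7 and 19 of 100 nearest genes up, and PIK3R6 and PIK3C2B 50 each. RICTOR (36.5% GC), which was down, had 3 up, and RPTOR (59.8%), which was up, had 60. The part of base composition in these calls was not tested, and all points come from the same 2 libraries.

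The longest transcripts of the 4 genes, from 5609 bases for PIK3R3 to 9093 for PIK3CA, were longer than those of 74.4% to 93.8% of listed genes. Within 1000000 bases of the 4 genes the table lists 7 other genes: KCNMB3 and MFN1 near PIK3CA, CCNB1 near PIK3R1, RAD54L near PIK3R3 and JAG2 near AKT1, all down, and AKR1A1 and FAAH near PIK3R3, both up.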

How the data were processed

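RNA of 1 control and 1 ezetimibe-treated culture was sequenced. HISAT2 2.0.4 and StringTie 1.3.0 were used, per the submitters' processing notes. The authors named edgeR and KEGG enrichment in the title of the deposited table, with no settings stated. The table deposited by the authors gives, per the file headers, whole numbers of genes, gene names by direction, a rich factor (a ratio), a p-value and a q-value for each pathway. The deposited ratio was recomputed from the deposited gene numbers, with and without the 4 genes. The members and gene lists were chosen with earlier results of these data known. Of 255 list symbols, 255 had an Ensembl gene ID. Named genes are all listed members of lists with 12 or fewer listed genes, otherwise the 6 under the most pathways; for likeness the 3 with the highest Jaccard index; and, for pathways, rows with all 4 genes and the 8 smallest p, the 5 largest shares, and 9 rows of the pathway. Some genes this rule takes are not reported here. Genes grouped or singled out beyond this were chosen after their direction was seen. GC content came from GENCODE release 29 (2237 of 2238 genes), start windows from RefSeq (GRCh38.p14), and transcript matches of at least 300 bases from BLAST+ 2.17.0. No statistical test was run on the data, since there is 1 library per condition. The code for the nearest-gene share was checked on simulated directions. Tables were handled with pandas 2.3.3 and NumPy 2.4.6 in Python 3.11.15, intervals computed with SciPy 1.17.1 and figures drawn with Matplotlib 3.10.9. Alternatives were stricter pathway thresholds, leaving out disease pathways or the 4 genes, other GC measures and other numbers of nearest genes.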

Additional observations from a re-analysis of the deposited data

How the results depend on the processing

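No paired analysis was possible because there is 1 library per condition, and for the same reason no replicate could be left out. Each gene has 1 call repeated across rows, so the rows with an authors' p or q below 0.05 hold the same 4 calls and give no check of them. Rows holding all 4 numbered 40 of 76 with an authors' p below 0.05, and 40 of 76 outside human disease. Outside human disease, 3 rows with all 4 genes, instead of 6, had a rich factor that fell to 1 or below without them, as fewer rows were counted; with the 4 genes taken out of the listed genes only, 9 did. The share up of the network lists stayed between 30.1% and 32.2% under the 3 alternatives tried. Around each gene, the share up with 50 or 200 nearest genes stayed within the interval given. With GC content averaged over all transcripts it was 15% around PIK3R3 and within the interval for the other 3 genes. A further alternative was GC content averaged over the start windows of each gene, which 1745 of the listed genes have. The share up was then 30% around PIK3CA, 28% around PIK3R1, 29% around PIK3R3 and 32% around AKT1. So the wide spread of shares between the 4 genes was seen with transcript GC content and not with that of start windows. These measures rank different sets of genes, and the cause was not tested. Depth and the size of each change are unknown.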
